A study of Arabidopsis thaliana with 7 samples.

Results

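The genes described here are the 39 *Arabidopsis thaliana* genes for making, mobilising and exporting the carbohydrate of photosynthesis: 16 for starch synthesis, 17 for starch breakdown and 6 for triose phosphate export, sucrose synthesis and sucrose export. They are a list of named pathway genes, drawn up with earlier results of these data known but with no measured value in the rule, out of 33602 genes in the count table, and all 39 were found there. The series holds 7 samples of wild-type Col-0, the reference accession: 3 RNA-seq libraries, replicates 1 to 3, and 4 chromatin libraries not analysed here. The seedlings were 14 days old, grown on MS medium at 22 °C in 16 h of light and 8 h of dark; no mutant, transgene or second treatment is given. The libraries were made from whole seedlings, so leaf, stem and root RNA was pooled, and fewer cells of a type cannot be told apart from less RNA per cell. The sources used here do not say whether the replicates were separate plants or cultures, so all spreads measure these 3 samples only and may be technical. With a single RNA group there is no contrast between conditions, and the comparisons are between steps of the pathway within a library and between the libraries.

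In chloroplasts, starch is built by day from the Calvin cycle's fructose 6-phosphate and degraded at night. Synthesis runs through ADP-glucose, from which starch synthases extend glucan chains that branching enzymes branch and isoamylases trim. Breakdown begins with phosphorylation of the granule surface, which lets beta-amylases release maltose, and the maltose is exported and used in the cytosol to make sucrose. By day triose phosphate leaves the chloroplast directly for sucrose synthesis, and sucrose is then passed to the phloem.

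The libraries held 30946664, 18493022 and 20764970 counts in replicates 1, 2 and 3. At the depth of replicate 2 a count of 0 allows up to 0.162 CPM (each count scaled to its library's total; levels below also carry TMM factors), counting error only. Low counts were mostly even, so both reads of a pair may have been counted; if so, the limit is 0.324 CPM. The tissue markers RBCS1A (green tissue) and PYK10 (root) stood at 10326 ± 475 and 2385 ± 9.71 CPM (SD, n = 3), so shoot and root RNA were both present. Counts on the 4 rRNA genes made up 1.20%, 1.39% and 2.97% of replicates 1 to 3. CPM is not corrected for transcript length, because transcript lengths in the build of the counts were not used here. A difference in CPM between genes is therefore a difference in counts drawn, which a longer transcript also raises; differences between libraries for 1 gene are free of this.

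All 39 genes had a mean of at least 1 CPM, against 56.3% of all genes in the table. Of them 24 lay at 100 CPM or over, a class that holds 5.90% of all genes, 14 at 10 to under 100 CPM and 1, GBSS, under 10 CPM. The median member was at 120 CPM and the median expressed gene at 19.1 CPM. Together the 39 genes drew 8192, 8453 and 8564 CPM in replicates 1, 2 and 3.

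**Figure D1:**
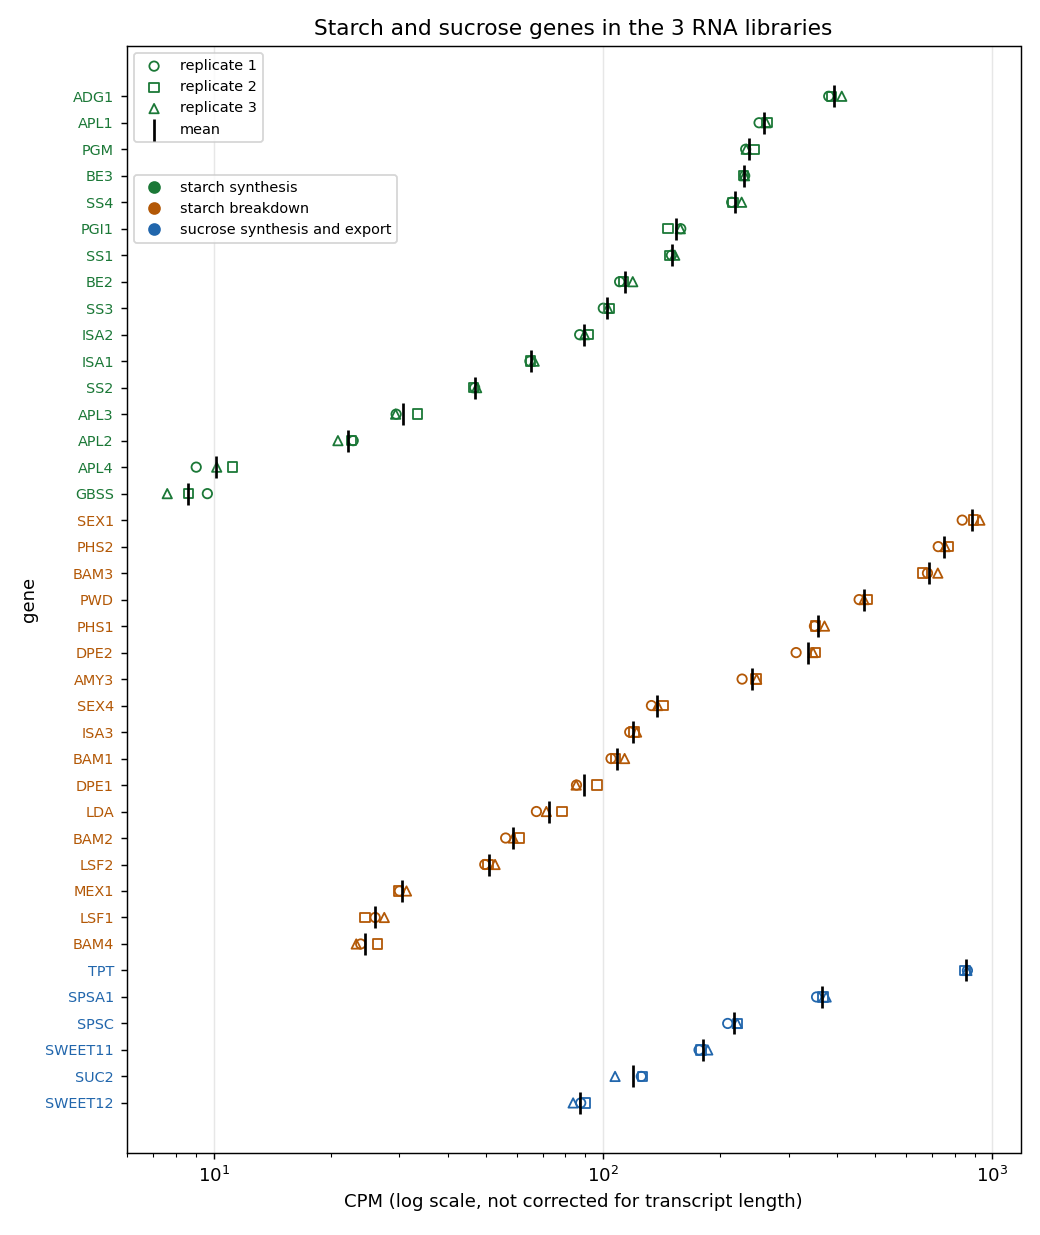
CPM of each gene (log axis) in each RNA library, with open symbols for replicates 1 to 3 and a bar for their mean, ordered by mean within starch synthesis (green), starch breakdown (orange) and sucrose genes (blue). The genes run from GBSS at 8.61 CPM to SEX1 at 886 CPM, and the 3 libraries lie close together for most of them.

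Substrate for starch synthesis is supplied by PGI1 (AT4G24620), the plastid phosphoglucose isomerase, and PGM (AT5G51820), the plastid phosphoglucomutase. PGI1 stood at 158, 147 and 158 CPM in replicates 1, 2 and 3, and PGM at 232, 245 and 233 CPM. Replicate 2 was the lowest library for PGI1 and the highest for PGM. Their sum was 391 ± 0.601 CPM (SD, n = 3), a spread that was not tested and is not read as a pattern.

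ADP-glucose pyrophosphorylase, the regulated first step, combines a small subunit, ADG1 (AT5G48300), with large subunits APL1 to APL4. ADG1 stood at 380, 386 and 410 CPM, the highest synthesis gene in each library. APL1 (AT5G19220), the main large subunit of leaves, stood at 252, 264 and 262 CPM and drew 80.5 ± 0.791% of the counts of the large subunit genes (SD, n = 3). The others, APL3 (AT4G39210), APL2 (AT1G27680) and APL4 (AT2G21590), drew 9.53 ± 0.514%, 6.86 ± 0.418% and 3.14 ± 0.247%. APL3 and APL4 are known from sink tissues such as roots, which these seedlings include. APL3 stood at 29.4, 33.4 and 29.3 CPM, APL2 at 22.8, 22.6 and 20.8 CPM and APL4 at 9.02, 11.2 and 10.2 CPM, so the order of the 4 large subunit genes was the same in each library and no value of one overlapped another. The ratio of ADG1 to the summed large subunits was 1.21, 1.17 and 1.27 in replicates 1 to 3. ADG1 was above the sum of its partners in each library, on the CPM scale.

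Among the 5 starch synthase genes of the set, SS4 (AT4G18240), which acts in granule initiation, drew the largest part of the counts, 41.5 ± 0.593%. It stood at 214, 216 and 227 CPM. SS5 (AT5G65685), at 32.6 CPM, lies outside the set and is not in this share. SS1 (AT5G24300), which extends short chains, stood at 150, 148 and 153 CPM, SS3 (AT1G11720) at 100, 104 and 103 CPM and SS2 (AT3G01180) at 46.8, 46.4 and 47.3 CPM. These 4 soluble-type synthases kept 1 order in each library. The coefficient of variation of SS2 was 1.02%, a spread that did not pass counting error (edgeR goodness-of-fit, adjusted p = 0.934).

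GBSS (AT1G32900, GBSS1 in the gene table), the granule-bound synthase that makes amylose, stood apart at 9.63, 8.61 and 7.60 CPM, the lowest mean of the 39 genes. It drew 1.64 ± 0.219% of the counts of the 5 starch synthase genes of the set, and SS1 drew 15.6, 17.2 and 20.1 times as many. Replicate 1 was the highest library for GBSS and replicate 3 the lowest, yet the spread did not pass counting error (edgeR goodness-of-fit, adjusted p = 0.116). As background, GBSS transcript is known to peak around dawn under control of the clock proteins CCA1 and LHY. LHY stood at 2.33, 1.92 and 2.53 CPM and TOC1, an evening clock gene, at 215, 224 and 225 CPM. CCA1, named after its values were seen, stood at 1.91, 2.35 and 3.31 CPM, a spread that passed counting error (edgeR goodness-of-fit, adjusted p = 0.0288) but not that of genes at its level (adjusted p = 1.00). CCA1 had 59, 44 and 68 counts, and no result with counts halved is given for it. The remaining 5 of the 8 clock genes examined ran from PRR9 at 0.312 CPM to ELF4 at 98.4 CPM. Of the 7 clock genes with a mean of at least 1 CPM, 4 passed counting error, against 32.8% of all expressed genes, and differed in direction. This count is not read as a result about the clock genes. Besides CCA1 these were PRR7 at 26.6, 29.2 and 31.2 CPM, LUX at 66.5, 57.5 and 64.4 CPM and ELF4 at 105, 98.9 and 91.1 CPM. None of them passed the spread of genes at its level, and no result with counts halved is given for them. No source used here gives the time of day of harvest, and the part of time of day in the GBSS level was not tested.

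Branching enzymes BE3 (AT2G36390, SBE2.1 in the gene table) and BE2 (AT5G03650, SBE2.2) form the branch points. BE3 stood at 231, 229 and 231 CPM and BE2 at 110, 113 and 119 CPM. BE3 had the smallest coefficient of variation of the 39 genes at 0.456%, which did not pass counting error (edgeR goodness-of-fit, adjusted p = 0.930). The ratio of BE3 to BE2 was 2.10, 2.03 and 1.94. The isoamylase ISA1 (AT2G39930), the catalytic subunit of the trimming complex, stood at 64.9, 65.0 and 66.5 CPM, and its partner ISA2 (AT1G03310), which lacks activity of its own, at 87.1, 91.7 and 89.7 CPM. ISA2 thus drew 1.37 ± 0.0376 times the counts of ISA1, higher in 3 of 3 libraries. The ISA1 gene model overlaps AT2G39940, which stood at 49.8 CPM, and how reads shared by overlapping genes were counted is not given.

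Starch breakdown opens with the glucan dikinases. SEX1 (AT1G10760), glucan water dikinase, stood at 836, 893 and 928 CPM, the highest mean of the 39 genes and rank 88 among all genes of the table. PWD (AT5G26570), which phosphorylates glucans that SEX1 has already acted on, stood at 455, 478 and 468 CPM. SEX1 drew 1.84, 1.87 and 1.98 times the counts of PWD. SEX1 lay lowest in replicate 1 and highest in replicate 3, a range that passed counting error (edgeR goodness-of-fit, adjusted p = 1.17e-25) but not the spread of genes at its level (adjusted p = 1.00).

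The phosphatases that remove this phosphate again drew fewer counts. SEX4 (AT3G52180) stood at 133, 142 and 138 CPM and LSF2 (AT3G10940) at 49.7, 50.6 and 52.8 CPM. LSF1 (AT3G01510), a non-catalytic relative that binds beta-amylases, stood at 26.0, 24.5 and 27.4 CPM. In the TAIR10.1 gene table LSF1 overlaps the carbonic anhydrase gene AT3G01500, which stood at 3849 CPM, and how reads shared by overlapping genes were counted is not given, so the LSF1 value is uncertain.

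Of the 4 beta-amylase genes in the set, BAM3 (AT4G17090, CT-BMY in the gene table), the main maltose-releasing enzyme of leaf chloroplasts, drew 78.2 ± 0.870% of the counts. It stood at 681, 660 and 724 CPM. BAM5 to BAM9 lie outside the set and are not in this share. BAM1 (AT3G23920), known from guard cells and osmotic stress, stood at 105, 108 and 114 CPM and BAM2 (AT4G00490) at 56.2, 61.1 and 58.8 CPM. BAM4 (AT5G55700), which has no catalytic activity and acts as a regulator, was lowest of these 4 genes in each library at 23.9, 26.4 and 23.2 CPM. Its gene model overlaps AT5G55710, which stood at 46.9 CPM, so its value is uncertain as that of LSF1 is; of the 14 genes with an overlap in the gene table these 2 lie below the gene they overlap. BAM3 drew 6.33 ± 0.188 times the counts of BAM1, and the values of the 4 genes did not overlap.

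Enzymes that cut branches and chains inside the chloroplast followed. The alpha-amylase AMY3 (AT1G69830) stood at 228, 247 and 248 CPM, the debranching enzyme ISA3 (AT4G09020) at 117, 120 and 122 CPM and the limit dextrinase LDA (AT5G04360) at 67.4, 78.5 and 71.5 CPM. The plastid phosphorylase PHS1 (AT3G29320) stood at 349, 351 and 370 CPM. The disproportionating enzyme DPE1 (AT5G64860), which recycles maltotriose, stood at 85.5, 96.5 and 85.3 CPM. AMY3 and LDA were lowest in replicate 1, and DPE1 was higher in replicate 2 than in the remaining libraries.

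Maltose leaves the chloroplast and is used in the cytosol through steps whose genes differed widely in counts. MEX1 (AT5G17520, RCP1 in the gene table), the maltose exporter, stood at 30.0, 29.8 and 31.3 CPM. DPE2 (AT2G40840), the cytosolic transglucosidase that takes up maltose, stood at 313, 351 and 346 CPM, 10.4, 11.8 and 11.1 times the counts of MEX1. PHS2 (AT3G46970), the cytosolic phosphorylase acting on the glucan that DPE2 extends, stood at 726, 771 and 756 CPM. PHS2 drew 2.11 ± 0.0813 times the counts of its plastid relative PHS1 (SD, n = 3). The cytosolic member was therefore higher in 3 of 3 libraries, as DPE2 was over DPE1 with a ratio of 3.79 ± 0.236.

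Summed over the steps, the 17 breakdown genes drew more counts than the 16 synthesis genes in each library. The synthesis genes summed to 2097, 2129 and 2168 CPM and the breakdown genes to 4281, 4490 and 4565 CPM. The synthesis-to-breakdown ratio was 0.490, 0.474 and 0.475, or 0.480 ± 0.00884 (SD, n = 3), and does not depend on how libraries were scaled. Both sides were led by a few genes: SEX1, PHS2, BAM3 and PWD together drew 62.8 ± 0.339% of the breakdown counts, and ADG1, APL1, PGM and BE3 drew 52.5 ± 0.285% of the synthesis counts. Without the 4 highest genes of each side, a setting added once the data had been seen, the ratio was 0.613. The median synthesis gene stood at 108 CPM and the median breakdown gene at 120 CPM, and with medians in place of sums the ratio was 0.903. The ratio is a description with no test, and it is not per transcript length.

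**Figure D2:**
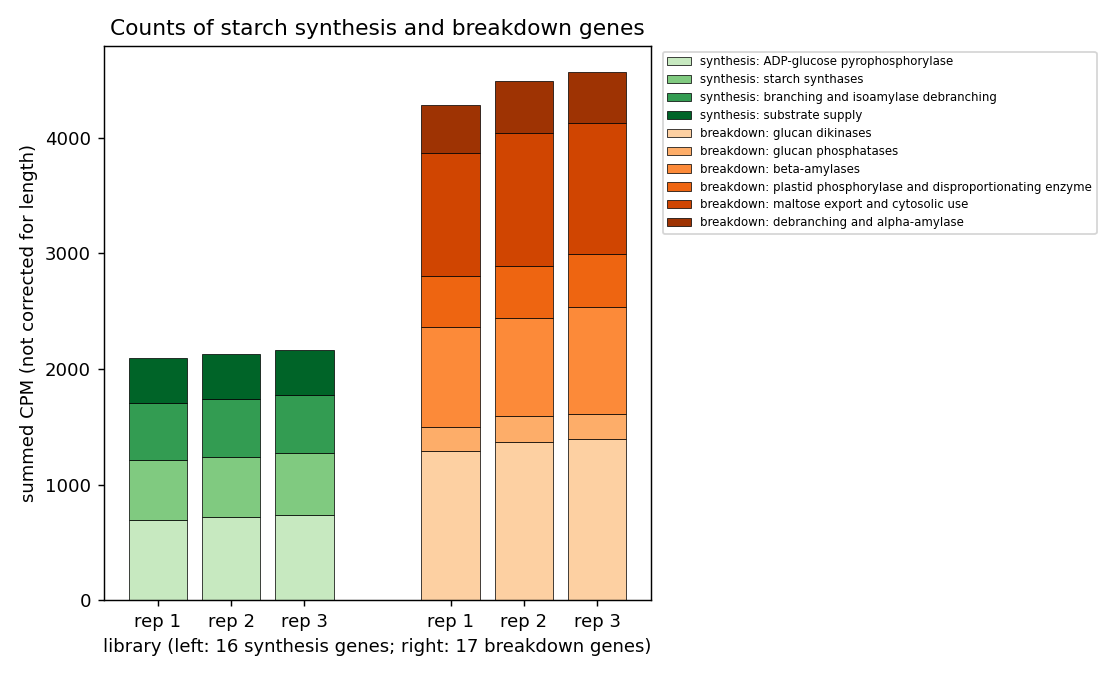
Summed CPM (linear axis from 0) of the 16 synthesis genes (left, green) and 17 breakdown genes (right, orange) in each RNA library, with each bar divided by family. The breakdown bars reach 4281 to 4565 CPM and the synthesis bars 2097 to 2168 CPM, and the dikinases and the cytosolic maltose route are the largest breakdown blocks.

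For triose phosphate export, TPT (AT5G46110, APE2 in the gene table), the triose phosphate translocator, stood at 862, 850 and 860 CPM. Its coefficient of variation was 0.769%, and its mean differed from that of SEX1 by less than the SD of SEX1. Sucrose phosphate synthase, which commits carbon to sucrose, was read from SPSA1 (AT5G20280, SPS1F in the gene table) at 353, 368 and 374 CPM and SPSC (AT4G10120, ATSPS4F) at 209, 222 and 221 CPM. SPSA1 drew 1.68 ± 0.0193 times the counts of SPSC, higher in 3 of 3 libraries.

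Sucrose leaves phloem parenchyma cells through the efflux carriers SWEET11 (AT3G48740) and SWEET12 (AT5G23660) and is loaded into companion cells by the sucrose-proton symporter SUC2 (AT1G22710). SWEET11 stood at 176, 178 and 186 CPM and SWEET12 at 87.6, 90.0 and 83.8 CPM, so SWEET11 drew 67.4 ± 1.32% of the pair's counts. The pair are close relatives, and how reads matching both were counted is not given. SUC2 stood at 125, 126 and 107 CPM, lower in replicate 3 than in both remaining libraries. This drop passed counting error (adjusted p = 3.85e-08) and had an unadjusted p of 0.0447 against genes of its level, but the adjusted p of that test was 1.00 (edgeR goodness-of-fit). Unadjusted, 791 of the 18915 expressed genes fell under 0.05 in that test. The ratio of SWEET11 to SUC2 was 1.41, 1.41 and 1.73. Replicate 3 was the highest library for SWEET11 and the lowest for SWEET12 and SUC2.

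The order of the 39 genes by mean CPM was firm only in part. Of the 38 pairs of neighbours in that order, 27 lay in the same order in all 3 libraries and 11 did not. In 12 pairs the gap was under the larger SD of the pair, among them SEX1 and TPT, PHS1 and DPE2, SS4 and SPSC, SUC2 and ISA3, and APL3 and MEX1. For any pair the two-sided exact sign-flip permutation test over 3 libraries cannot give a p under 0.25.

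The libraries placed these genes to within a few percent. The median coefficient of variation was 3.41% over the 39 genes, from 0.456% (BE3) to 11.8% (GBSS), against 5.72% over the 13203 expressed genes within their range of CPM, whose median level is lower, at 32.4 CPM. Beyond counting error 19 of the 39 varied (edgeR goodness-of-fit with dispersion 0, adjusted p under 0.05 over 18915 genes), where 32.8% of all tested genes and 35.9% of those in the members' range did. These 19 were 10 breakdown, 6 synthesis and 3 sucrose genes. With counts halved, as would apply if both reads of a pair were counted, 7 passed (ADG1, SEX1, BAM3, DPE2, AMY3, PHS2 and SUC2), against 6.46% of all genes; 5 of the 7 are breakdown genes. Genes with more counts pass this test more readily. Without replicate 1, the library with the most counts, the number was 7, and without replicate 3 it was 12. The share of all genes passing was not taken in these settings, so these numbers are not read as a result about the members.

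Against genes of their own level, none of the 39 passed (goodness-of-fit in edgeR, dispersion from the trend), where 0.148% of tested genes did. SUC2 alone had an unadjusted p under 0.05, as did 791 of the 18915 expressed genes. With DESeq2 size factors the number passing was also 0. With no filter on low counts SEX1 passed (adjusted p = 2.41e-05); the dispersion fitted at its level was then 0.000106 instead of 0.00267.

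**Figure D3:**
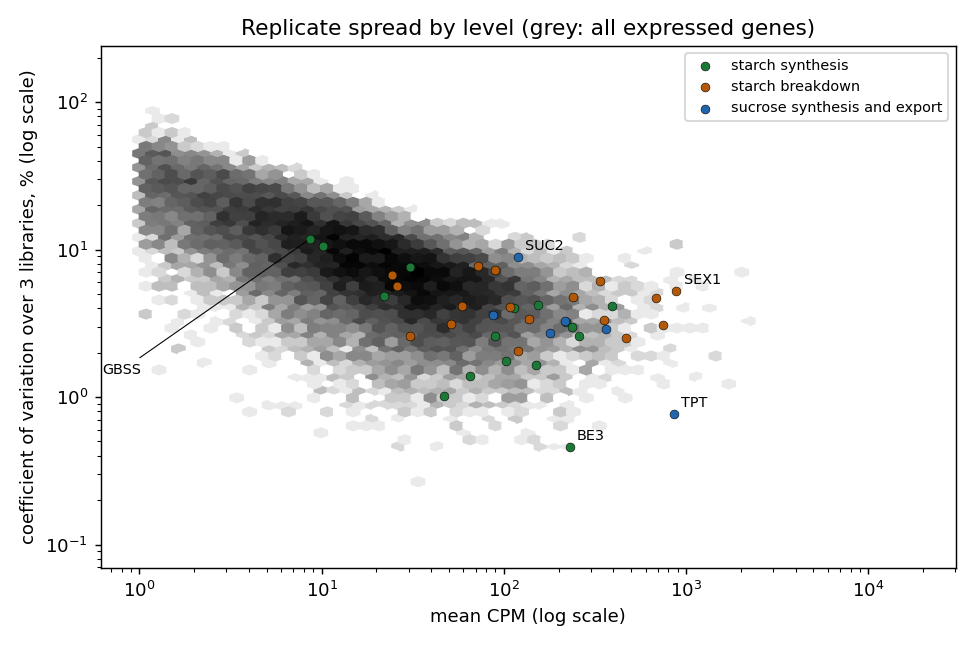
Coefficient of variation over the 3 libraries against mean CPM (both log axes) for the 39 genes (coloured by group) over all 18915 expressed genes (grey, darker where more genes lie). BE3 and TPT lie lowest of the 39 genes at 0.456% and 0.769%. SUC2 lies at 8.95% and did not pass the test against genes of its level.

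Across libraries, most of the genes lay slightly lower in replicate 1. Relative to the mean of replicates 2 and 3, 31 of 39 were lower there, against 48.6% of expressed genes, with a median log2 difference of -0.05 against 0.00 over all expressed genes. Breakdown genes did so in 16 of 17 (median -0.07), synthesis genes in 12 of 16 (median -0.04) and sucrose genes in 3 of 6 (median -0.02). DPE2 and LDA were lower by the most among breakdown genes, with log2 differences of -0.16 and -0.15, followed by SEX1 and AMY3 at -0.12 each. LSF1 was the exception, at 0.00. In replicate 3, 30 of 39 exceeded the mean of replicates 1 and 2, against 49.5% of expressed genes, and 14 of 17 breakdown genes were. The counts of 31, 16, 12 and 3 were the same with TMM, DESeq2 size factors and plain library totals.

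Neither remaining library alone carried this difference. Breakdown genes were lower in replicate 1 than in replicate 2 in 14 of 17, against 49.5% of expressed genes, and lower than in replicate 3 in 15 of 17, against 49.1%. Of the 39 genes 24 had their lowest value in replicate 1, against 31.9% of expressed genes. No gene of the set passed the test against its level, the shifts are a description with no test, and members of 1 pathway are not independent. RBCS1A differed the other way, at 10856, 10182 and 9940 CPM in replicates 1 to 3, and PYK10 stood at 2374, 2388 and 2393 CPM. The parts of tissue makeup, harvest and rRNA share in the shift were not tested.

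**Figure D4:**
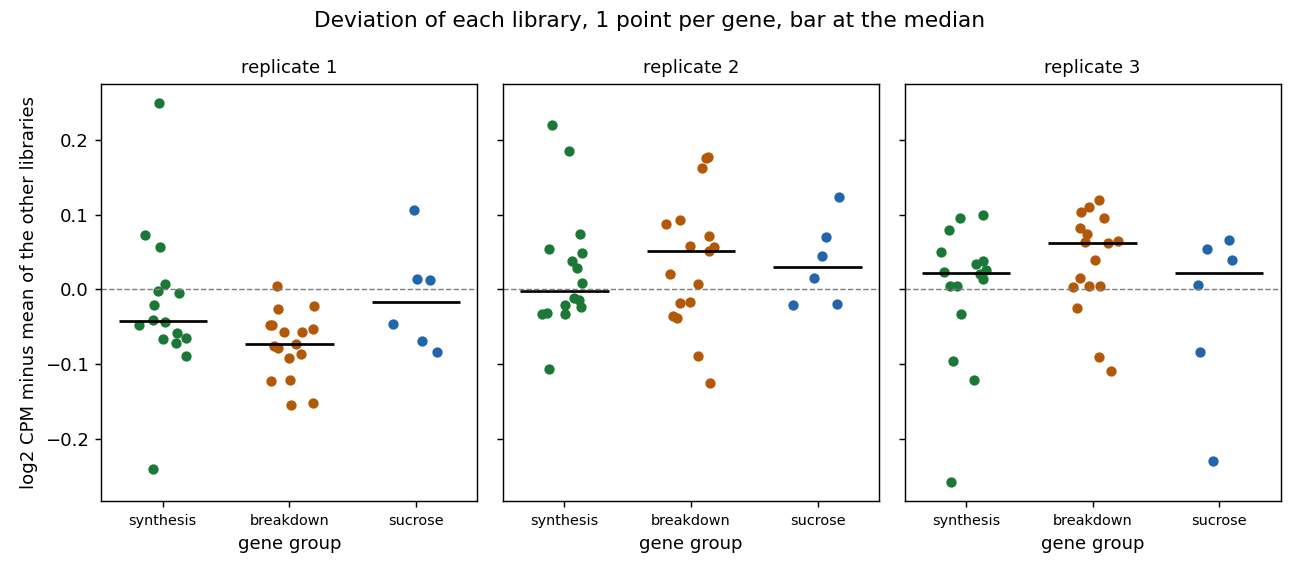
Log2 CPM of each gene in 1 library minus the mean of the other libraries, for replicates 1, 2 and 3 (panels), with 1 point per gene and a bar at the median of the synthesis, breakdown and sucrose genes. In replicate 1, 16 of 17 breakdown genes lie below 0, and in replicate 3, 14 of 17 lie above it.

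Other genes of the pathway were taken from 5 lists, of which 35 genes had their name in the gene table. Of the 35, 34 had a mean of at least 1 CPM, against 56.3% of all genes. None varied beyond genes of its level. In that test (edgeR goodness-of-fit) 2 had an unadjusted p under 0.05, against 791 of all 18915 expressed genes. In synthesis all 4 were expressed: the glucose 6-phosphate translocators GPT1 and GPT2 stood at 35.3 ± 3.41 and 5.03 ± 0.0938 CPM, BE1 at 19.1 ± 1.72 CPM and APS2, a second small subunit gene of ADP-glucose pyrophosphorylase, at 1.36 ± 0.314 CPM. APS2 had 31, 30 and 30 counts, where ADG1 had 11750, 7215 and 8422. In breakdown all 8 genes with their name in the gene table were expressed. They were led by the plastid glucose exporter PGLCT at 134 ± 5.96 CPM, BAM6 at 39.1 ± 3.33 CPM and BAM9 at 37.5 ± 1.99 CPM. BAM5 at 2.75 ± 0.311 CPM and AMY1 at 1.21 ± 0.191 CPM were the lowest. Left out in the same way were LESV (AT3G55760) at 36.0 ± 2.65 CPM and ESV1 (AT1G42430) at 22.3 ± 2.16 CPM.

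In sucrose synthesis all 7 genes with their name in the gene table were expressed. Further genes of this list lacked their name there and were left out of the counts and the order. These were CFBP1 (AT1G43670) at 241 ± 3.39 CPM, SPP2 (AT2G35840) at 117 ± 2.82 CPM and SPSB (AT1G04920) at 2.88 ± 0.368 CPM. F2KP, which makes and removes the regulator fructose 2,6-bisphosphate, stood at 189 ± 5.90 CPM, the cytosolic phosphoglucomutase PGM2 at 177 ± 4.72 CPM and the UDP-glucose pyrophosphorylase UGP1 at 153 ± 8.82 CPM. SPSA2, a further sucrose phosphate synthase, stood at 18.8 ± 0.899 CPM. The sucrose phosphatase SPP1 stood at 6.57 ± 0.456 CPM, below the left-out sucrose phosphatase SPP2. Of the sucrose synthases, which cleave sucrose in sink tissue, 6 of 6 were expressed, with SUS1 at 41.2 ± 2.26 CPM, SUS3 at 25.5 ± 0.864 CPM and SUS4 at 15.7 ± 1.37 CPM the highest, and SUS5 at 3.61 ± 0.700 CPM and SUS2 at 1.57 ± 0.230 CPM the lowest.

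Among 10 further sugar transporters 9 were expressed. The vacuolar sugar importers TMT1 and TMT2 stood at 94.0 ± 3.77 and 80.1 ± 5.75 CPM and the sucrose symporter SUC1 at 76.0 ± 4.19 CPM. A pair of relatives of SWEET11 and SWEET12 drew few counts. SWEET13 stood at 1.09 ± 0.572 CPM with 53, 11 and 20 counts, highest in replicate 1. Its spread passed counting error (edgeR goodness-of-fit, adjusted p = 0.00545) but not that of genes at its level. No result with counts halved is given for SWEET13. SWEET14 was near the floor, with 4, 0 and 1 counts. SWEET11 and SWEET12 thus drew nearly all counts of these 4 carriers.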

How the data were processed

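RNA-seq of 3 wild-type libraries was used. The authors deposited an unnormalised count table, with a column for each library. The submitters' processing notes name build TAIR10 and, with no role or order, featureCounts, HISAT2, cutadapt, deepTools 3.5.1, SAMtools 1.13 and Bowtie2 2.4.5. Annotation release, strand and multi-mapping settings were not found in any source used here. The library kit is stranded, per the labels' protocols. Among counts of 1 to 19, 84.5% to 86.2% were even, so both reads of a pair may have been counted and a count may not be an independent molecule, and intervals cover counting error only.

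CPM came from edgeR 4.0.16 (R 4.3.3) with TMM factors of 0.989 to 1.01. Genes averaging 1 CPM or more were called expressed. Spread was tested with the goodness-of-fit test of edgeR, fitting an intercept to all 18915 expressed genes (Benjamini-Hochberg, threshold 0.05). Log2 differences used a prior count of 2. DESeq2 1.42.0 size factors were an alternative.

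Levels were planned per kilobase of coding sequence; coding lengths in the build of the counts were not used here, so CPM replaced them. Names came from a RefSeq gene table (TAIR10.1), in which 39 of 39 members were found, 36 under the name used here; 14 members overlap another gene there. The members and lists were chosen with earlier results of these data known. All members were named, and of each further list the 3 highest and 2 lowest genes whose name is in the gene table. By this rule 9 of 44 were left out, and these are given by level only.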

Additional observations from a re-analysis of the deposited data

How the results depend on the processing

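All 39 genes stayed expressed at thresholds of 0.5 and 2 CPM, with DESeq2 size factors and without each replicate. The number varying beyond counting error, 19, stayed at 19 with DESeq2 size factors and with no filter, fell to 7 with counts halved, and ran from 7 to 13 when each replicate was left out. For this test the share over all genes was taken only in the main setting and with counts halved. Beyond genes of their level the number was 0, and 1 (SEX1) with no filter, where 130 of 23616 genes passed in all. The synthesis-to-breakdown ratio of 0.480 became 0.903 with medians, 0.531 without LDA and PHS1, 0.489 without the highest gene of each side, and, in alternatives chosen after seeing the data, 0.613 without the 4 highest genes of each side and from 0.391 without ADG1 to 0.599 without SEX1. It stayed below 1 in each of these and at 0.474 to 0.482 without each replicate. The causes of the changes between settings, that of the SEX1 call included, were not tested. The shares of APL1, SS4, BAM3 and SWEET11 moved by less than their SD without any replicate. The alternative per kilobase was not run. No paired analysis was possible because the RNA libraries form 1 group.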
